A study of Mus musculus with 278 samples.

Results

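The Q2 spermatogonia are the 70 cells of 278 whose EGFP fluorescence put them in the second brightest of 4 quartiles. They were chosen by that label alone, with no expression value, and 7, 16, 7, 20 and 20 of them came from preparations 1 to 5. All 278 cells were EGFP-positive spermatogonia of untreated mice at postnatal day 6 that carry the ID4-EGFP reporter, so the groups differ in reporter brightness and not in genotype, age or treatment. The comparison groups are the 74 cells of Q1 (brightest), the 74 cells of Q3 and the 60 cells of Q4 (dimmest), with 4 to 20 cells in each preparation and quartile.

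Per the labels, parenchyma from the testes of at least 2 pups was pooled for a suspension, EGFP-positive cells were sorted, and single cells were caught on a Fluidigm C1 chip, imaged for brightness and turned into polyA-primed cDNA libraries. Ethidium-stained dead cells, multiplets and wells with debris had been left out. The labels do not say whether brightness was ranked within a preparation or whether preparations came from separate litters. One protocol passage attaches the name Q2 to the lower quartile, while the design text runs from bright Q1 to dim Q4. The order of the design text was used, and mean Id4 transcript levels of 17.4, 8.61, 6.68 and 3.77 FPKM from Q1 to Q4 run in that order.

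Spermatogonial stem cells maintain themselves in the young testis, while progenitor spermatogonia lose this capacity and pass on to differentiation. Glial cell line-derived neurotrophic factor from Sertoli cells acts on the co-receptor Gfra1 and the kinase Ret, and together with fibroblast growth factors drives ERK signalling and genes such as Etv5, Bcl6b and Dusp6. Id4, an inhibitor of helix-loop-helix factors, is high in stem cells, Neurog3 and Sox3 are known from progenitors, and Kit and Stra8 from cells that respond to retinoic acid.

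Markers of undifferentiated spermatogonia were detected in most Q2 cells, and so were Kit and Stra8. Counting a gene as detected at FPKM (fragments scaled to transcript length and library size) of at least 1, Etv5 and Zbtb16 were each detected in 66 of 70 cells (94.3%, exact Clopper-Pearson 95% interval 86 to 98.4%) and Gfra1 in 55 (78.6%, 67.1 to 87.5%). All 3 were detected together in 51 cells (72.9%, 60.9 to 82.8%), and in 42.9 to 85.7% of cells in single preparations. Intervals of shares pool cells over preparations and cover counting error only. All 3 were found in 85.1% of Q1, 62.2% of Q3 and 38.3% of Q4 cells, and Zbtb16 alone in 97.3, 93.2 and 90%. Stra8 was detected in 55 Q2 cells (78.6%) and Kit in 44 (62.9%). Of other genes of differentiation, Sohlh2 was detected in 67 and Dmrtb1 in 8. Per cell, 10 to 17 of 17 germ cell genes were detected, with a median of 15. Markers of other testis cells were sparse: at least 2 of 7 Sertoli markers were detected in 7 cells and at least 2 of 5 endothelial markers in 1 cell, and no Q2 cell held 2 Leydig, peritubular myoid, macrophage or erythroid markers. Any single marker was detected in 26 cells for Sertoli, 16 for Leydig, 7 for myoid, 19 for endothelial, 13 for macrophage and 8 for erythroid cells. Summed over each list, the preparation means ranged from 0.55 to 17.4 FPKM for Sertoli, 2 to 6.18 for Leydig, 0.041 to 4.04 for myoid, 0.042 to 3.78 for endothelial, 0 to 24.3 for macrophage and 0 to 2.79 for erythroid markers. Of these lists 1 of 7, 4 of 5, 2 of 5, 1 of 5, 2 of 4 and 2 of 3 genes in the matrix were at 0 in every Q2 cell. The part of such cells in the results was not tested.

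Depth was estimated at 285644 to 948299 mapped fragments per Q2 cell, with a median of 655800, and 4010 to 7613 genes were detected per cell, with a median of 6474. Preparation 3 stood apart: its Q2 cells averaged 4426 detected genes, against 7065, 6898, 6260 and 6216 in preparations 1, 2, 4 and 5. Detected genes averaged 6173 ± 1047 in Q2, 6293 ± 931 in Q1, 6106 ± 1127 in Q3 and 5732 ± 1305 in Q4 (SD over 5 preparations). Q2 differed from Q1 by -120.3 ± 296.8 genes (higher in 2 of 5 preparations, exact permutation p = 0.50) and from Q4 by 441.0 ± 427.9 (4 of 5, exact permutation p = 0.1875). The smallest two-sided p that 5 preparations allow in this test is 0.0625. Because Q4 cells held fewer detected genes, the main comparisons with Q4 are given below with that number as a covariate too.

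Across the transcriptome no gene passed the test between Q2 and any other quartile. Levels were compared as the mean over cells of log2(FPKM + 1) in each preparation and quartile, within preparations, with limma, and 10452 genes were tested. The fit weights each preparation by its cells, so a fitted difference near 0 can differ in sign from the plain mean of the 5 preparations. With Benjamini-Hochberg adjustment at 0.05, limma called 0 genes between Q2 and Q1 (smallest adjusted p = 0.997), 0 between Q2 and Q3 (0.974) and 0 between Q2 and Q4 (0.295). The differences named below are therefore values and not changes, and a p that misses the threshold does not show that levels were equal. P-values measure the spread between the preparations used.

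At an unadjusted limma p under 0.05, 192 genes (1.84%) stood higher in Q2 than in Q1 and 234 (2.24%) lower, with a median of -0.01 on the log2 scale over all genes. Leaving out preparation 3 gave 293 higher and 218 lower. Against Q3, 287 genes (2.75%) stood higher and 202 (1.93%) lower, with a median of 0.03. With detected genes as a covariate those counts were 222 and 264, and on the log2 of mean FPKM over cells (below, the log of the mean) 211 and 252.

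Against Q4, 931 genes (8.91%) stood higher in Q2 and 101 (0.966%) lower, with a median difference of 0.17. With the number of detected genes as a covariate the counts were 272 higher and 272 lower and the median was -0.00073. That number is counted from the same FPKM values, so such a fit can take out a broad shift whatever its source. The source of the shift was not tested. The log of the mean gave 455 and 272, with a median of 0.05, and scaling cells to one 75th percentile gave 1397 and 47, with a median of 0.24. Without preparation 5, 593 genes stood higher and 131 lower. A lean of Q2 toward Q1 was seen in the same way: against the midpoint of Q1 and Q4, 487 genes (4.66%) stood higher and 101 (0.966%) lower, but 253 and 230 with the covariate and 266 and 193 with the log of the mean.

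The genes that could be placed close to the Q1 level were few. For 1014 genes (9.70%) the whole limma 95% interval of Q2 minus Q1 lay within 0.5 log2 units of 0, and for 743 genes (7.11%) the interval of Q2 minus Q4 did. Among genes of known role these included Sall4, a zinc finger factor of spermatogonia, at 283 ± 31.2 FPKM in Q2 and 283 FPKM in Q1 (difference -0.02, interval -0.37 to 0.34). Uchl1, a ubiquitin hydrolase used as a spermatogonial marker, had 369 FPKM in Q2 and 391 in Q1 (-0.02, -0.34 to 0.29). Chosen after their values were seen, the germ cell genes Dazl (0.01, -0.17 to 0.19) and Mael (0.03, -0.22 to 0.28) also lay close. The count depends on preparations and settings: it was 544, 435 and 466 without preparations 2, 4 and 5, and 632 without preparation as a block. With a filter at 25% of cells it was 454 of 8344, and with no filter on low genes 7444 of 17107. Low genes can have narrow intervals because both levels are near 0, also at the 10% filter used here. The share of 9.70% therefore holds for that filter only.

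Id4 itself stood lower in Q2 than in Q1. In Q2 cells it averaged 0.827, 7.17, 19.5, 8.00 and 7.55 FPKM in preparations 1 to 5, against 19.9, 7.11, 9.54, 19.1 and 31.2 FPKM in Q1 and 0.496, 4.81, 0, 11.1 and 2.42 FPKM in Q4. The groups overlapped, and the highest Q2 mean, that of preparation 3, came from the 28.6% of its cells in which Id4 was detected. The Q2 minus Q1 difference of mean log2 values was -0.93 ± 0.40 (SE, limma unadjusted p = 0.028, lower in 4 of 5 preparations, adjusted p = 0.999), and -1.03 without preparation 3. Q2 minus Q4 was 0.68 ± 0.42 and above 0 in 5 of 5 preparations. Id4 was detected in 31 of 70 Q2 cells (44.3%, exact interval 32.4 to 56.7%), against 59.5% of Q1 and 26.7% of Q4 cells. In single preparations its Q2 share ran from 28.6 to 62.5%. The Q2 share exceeded that of Q4 by 17.6 ± 11.6 percentage points (SD over preparations, 5 of 5, exact permutation p = 0.0625, the smallest possible) and differed from that of Q1 by -17.8 ± 25.3 (exact permutation p = 0.25). Id4 lies at chr13:48261228-48266026 on the + strand (GRCm38), where antisense transcripts overlap its exons, and reads of the 2 strands cannot be told apart here.

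Hlf, a PAR bZIP transcription factor, stood below Q1 in every preparation. It averaged 4.65, 6.44, 0, 2.87 and 2.78 FPKM in Q2 cells of preparations 1 to 5 and 9.63, 9.10, 6.94, 7.56 and 14.5 FPKM in Q1 cells. Every Q2 mean lay below every Q1 mean. The difference was -1.27 ± 0.29 (SE, limma unadjusted p = 0.000191, adjusted p = 0.997), between -1.39 and -1.09 with any 1 preparation left out, and -2.28 with a pseudocount of 0.1. Hlf was detected in 26 of 70 Q2 cells (37.1%, exact interval 25.9 to 49.5%) and in 71.6% of Q1 cells. In single preparations its share ran from 0 to 57.1% in Q2 and from 45.5 to 100% in Q1. Q2 minus Q4 was 0.41 ± 0.30, or 1.01 with detected genes as a covariate, and the difference from the midpoint of Q1 and Q4 was -0.43 (limma unadjusted p = 0.104). Hlf was 1 of the 12 genes that an earlier comparison of Q1 with Q4 in these cells had called. It lies at chr11:90336536-90390895 on the - strand, with no exon of another gene over its own.

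Receptors of niche signals stood, by their median, a little below Q1. Over 17 receptor genes tested the median Q2 minus Q1 difference was -0.18, with preparation medians of -0.41 to -0.02, against -0.01 over all genes, and 4 of 17 differences lay above 0. Fzd7, a Wnt receptor, stood higher (0.40) and Epha2, an ephrin receptor, lower (-0.51 ± 0.19, limma unadjusted p = 0.011, 5 of 5 preparations lower). Gfra1 averaged 47, 32.9, 91.6, 16.9 and 20.8 FPKM in Q2 cells of preparations 1 to 5, 80.9, 23.4, 57.4, 39.4 and 49.6 FPKM in Q1 and 26.4, 37.8, 29.4, 14.3 and 36.1 FPKM in Q4. Preparation 3 was the highest in Q2, and the groups overlapped. The differences of Gfra1 were -0.71 ± 0.41 from Q1 (interval -1.56 to 0.15) and 1.22 ± 0.44 from Q4 (limma unadjusted p = 0.0101, adjusted p = 0.384, higher in 5 of 5), or 1.03 from Q4 without preparation 3. The distance from Q4 depended on the scale: Gfra1 was detected in 78.6% of Q2 and 45% of Q4 cells, at a median of 20.7 and 32.3 FPKM where detected, and on the log of the mean over cells the difference was 0.01. Ret averaged 24.5, 14.2, 12.6, 14 and 11.6 FPKM in Q2 and 26.5, 16.1, 27.7, 17.4 and 20.5 FPKM in Q1. It stood lower in Q2 in 5 of 5 preparations (-0.68 ± 0.35, interval -1.41 to 0.05). Bmpr1a, a receptor of bone morphogenetic proteins, stood above Q4 by 1.14 ± 0.35, and the list as a whole by a median of 0.16, against 0.17 over all genes. Gfra1 exons overlap an antisense transcript.

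**Figure D1:**
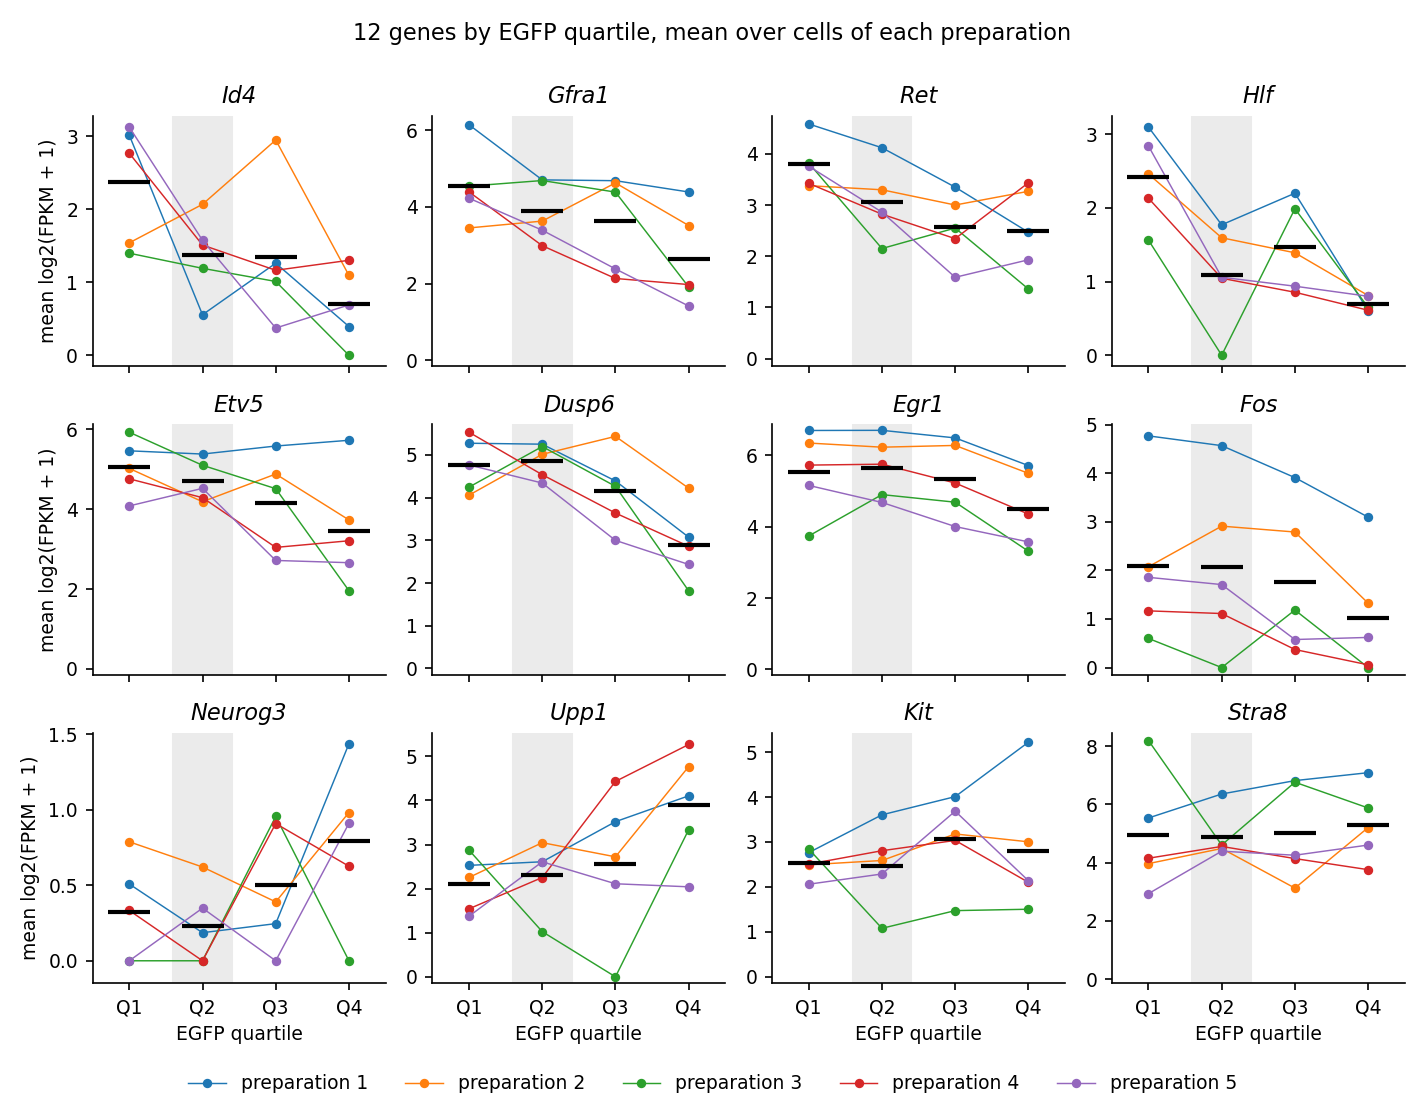
Mean log2(FPKM + 1) over cells in each preparation (coloured points and lines) and the mean of the 5 preparations (black bars) for 12 genes by EGFP quartile, with Q2 shaded. Id4, Gfra1, Ret and Hlf lie lower in Q2 than in Q1 in most preparations, while Dusp6, Egr1 and Fos have Q2 bars (4.87, 5.65 and 2.06) near their Q1 bars (4.78, 5.53 and 2.09) and above their Q4 bars (2.88, 4.49 and 1.02).

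Genes of the ERK response stood, by their median, a little below Q1 and above Q4 in Q2 cells. Over 22 genes tested the median Q2 minus Q1 difference was -0.26, with preparation medians between -0.30 and -0.07, and 3 of 22 differences lay above 0. Of the 22, 0 stood higher at unadjusted p under 0.05 and 2 lower, against 2.24% of all genes: Spry1, an inhibitor of receptor kinase signalling (-0.46 ± 0.19), and Ier3, an immediate early gene (-0.82 ± 0.31). None of the 22 had an interval within 0.5, against 9.70% of all genes. Against Q4 the median was 0.51, with preparation medians between 0.21 and 0.69, and 11 of 22 stood higher at that level, against 8.91% of all genes, and 0 lower. The 11 are Etv5, Etv4, Bcl6b, Egr1, Egr2, Fos, Spry4, Dusp5, Dusp6, Ccnd2 and Tcl1. The list median was 0.51 with detected genes as a covariate and 0.40 on the log of the mean, while that of all genes came to -0.00073 and 0.05. The list overlaps that of stem cell associated genes. It was chosen with earlier results of these cells known, and Tcl1 is among the genes called earlier between Q1 and Q4, so these counts are no separate evidence.

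Dusp6, the phosphatase that ERK induces and that acts on ERK, had the smallest p against Q4 of this list. It averaged 50.7, 72.4, 95, 59.2 and 49.8 FPKM in Q2 cells of preparations 1 to 5, 45.8, 38.9, 37.2, 57.5 and 68.4 FPKM in Q1 and 16.5, 58.9, 32.3, 33.3 and 29.9 FPKM in Q4. In every preparation the Q2 mean exceeded the Q4 mean, although the ranges overlapped. The Q4 mean of preparation 2 lay above the Q2 means of preparations 1 and 5. The fitted Q2 minus Q1 difference was -0.07 ± 0.40 (interval -0.89 to 0.75), while the unweighted means of log2 values were 4.87 in Q2 and 4.78 in Q1. No direction can be given, and a shift within that interval is possible. Q2 minus Q4 was 1.75 ± 0.42 (SE, limma unadjusted p = 0.000332, adjusted p = 0.295), 1.55 to 2.06 with any 1 preparation left out, 1.67 with detected genes as a covariate and 0.78 on the log of the mean. Against the midpoint of Q1 and Q4 it stood 0.84 higher (limma unadjusted p = 0.0249). Dusp6 was detected in 92.9% of Q2, 90.5% of Q1, 74.3% of Q3 and 60% of Q4 cells.

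Etv5, an ETS factor downstream of Gfra1 and Ret, averaged 54, 40.8, 73, 32.4 and 54 FPKM in Q2, 59.6, 61, 77.4, 37.0 and 40.6 FPKM in Q1 and 58.9, 33.6, 29.2, 29.4 and 32 FPKM in Q4. In preparation 1 all 3 groups lay within a few FPKM of each other. The differences were -0.32 ± 0.38 from Q1 (interval -1.10 to 0.46) and 1.30 ± 0.40 from Q4 (limma unadjusted p = 0.0033, adjusted p = 0.331, higher in 4 of 5 preparations). From Q4 the value was 0.66 with the covariate and 0.46 on the log of the mean. Etv5 was detected in 94.3% of Q2 cells, 94.6% of Q1, 74.3% of Q3 and 58.3% of Q4 cells. The step in the share of cells thus fell between Q2 and Q3 in this count over pooled cells, which was not tested. Bcl6b, a repressor that glial cell line-derived neurotrophic factor induces, averaged 23 ± 11.9 FPKM in Q2 and 19.3 in Q1, but differed by -0.24 ± 0.36 (interval -0.98 to 0.49) in the mean of logs, so its direction from Q1 turns with the scale. It stood 0.81 ± 0.38 above Q4.

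Egr1 and Fos, immediate early genes, also stood above Q4 in the mean of logs. Egr1 averaged 126, 122, 64.2, 89 and 49.5 FPKM in Q2, 108, 105, 47.1, 88.2 and 98.8 FPKM in Q1 and 93.6, 70.9, 67.1, 43.9 and 70.7 FPKM in Q4. Its mean log2 difference was 0.01 ± 0.26 from Q1 (interval -0.53 to 0.55, -0.16 without preparation 3) and 1.14 ± 0.28 from Q4 (limma unadjusted p = 0.000401, 5 of 5). On FPKM means, preparations 3 and 5 were lower in Q2 than in Q4, and the log of the mean gave 0.33. Fos averaged 36.8, 23.1, 0, 11.1 and 8.16 FPKM in Q2, and differed by 0.07 ± 0.31 from Q1 in the weighted fit (unweighted means of log2 values 2.06 and 2.09, so no direction can be given). It stood 1.11 ± 0.33 above Q4 (limma unadjusted p = 0.00236), or 1.46 on the log of the mean. It was detected in 32 of 70 Q2 cells, and in no Q2 cell of preparation 3. Over the wider list of 16 immediate early and stress genes the median was -0.04 from Q1, where 4 of 16 intervals lay within 0.5 against 9.70% of all genes, and 0.35 from Q4, where 5 of 16 stood higher against 8.91%. Enzymatic dissociation can induce such genes, and its part was not tested.

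**Figure D2:**
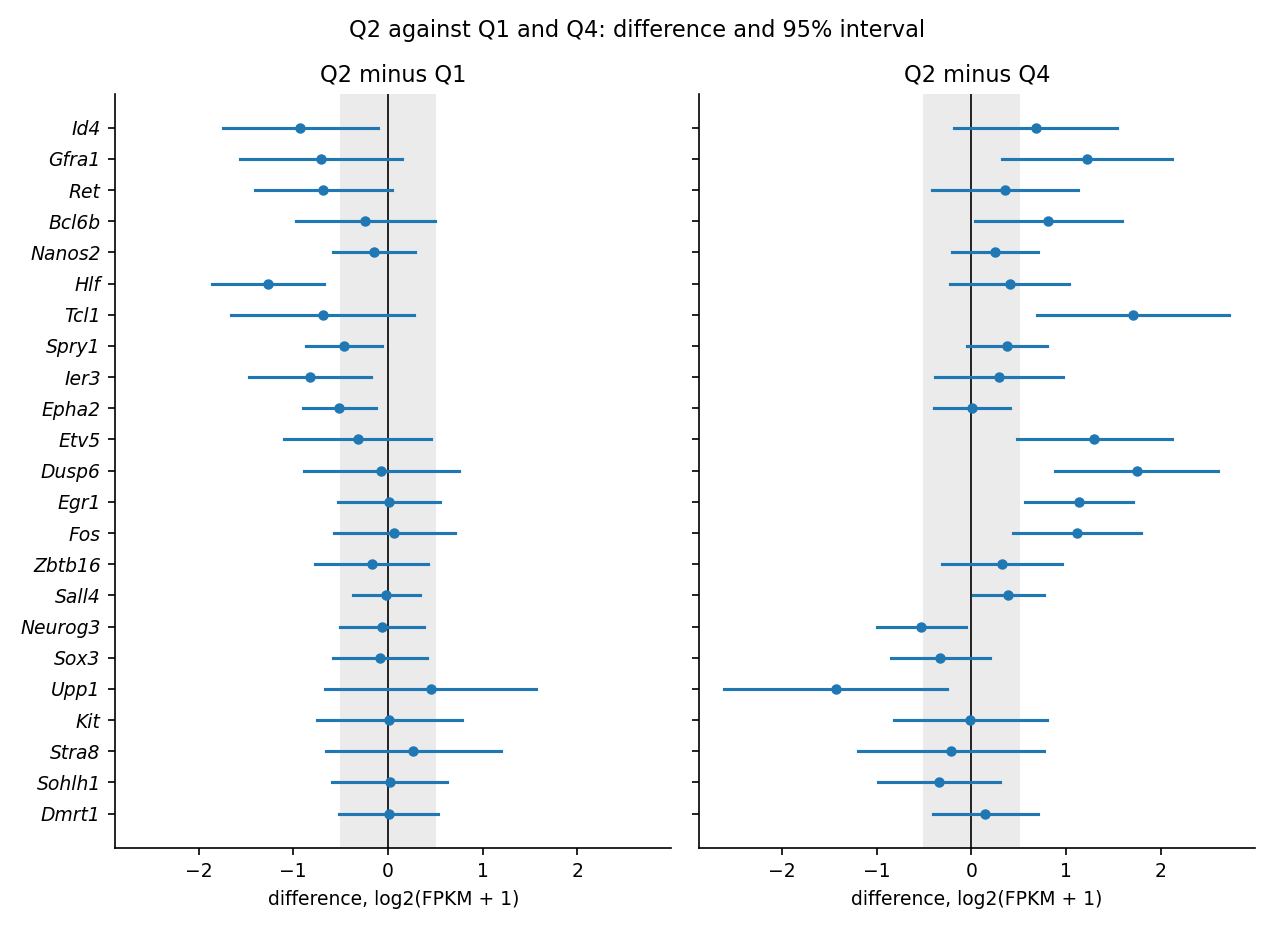
Difference in mean log2(FPKM + 1) with its limma 95% interval for 23 genes, Q2 minus Q1 on the left and Q2 minus Q4 on the right, with the band of 0.5 on either side of 0 shaded. Intervals of Id4, Hlf, Spry1, Ier3 and Epha2 lie below 0 on the left, and those of Gfra1, Bcl6b, Tcl1, Etv5, Dusp6, Egr1, Fos and Sall4 above 0 on the right, where those of Neurog3 and Upp1 lie below 0.

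Since these members stood together relative to Q4, the 250 bases upstream of 2 of them are shown (RefSeq promoters, GRCm38.p6): Dusp6 at chr10:99262981-99263230 on the + strand, and Etv5 on the - strand before each of its 2 RefSeq starts, at chr16:22439571-22439820 and chr16:22438369-22438618. Capitals mark GGAA or its complement TTCC, the core that ETS factors such as Etv5 bind.
Dusp6: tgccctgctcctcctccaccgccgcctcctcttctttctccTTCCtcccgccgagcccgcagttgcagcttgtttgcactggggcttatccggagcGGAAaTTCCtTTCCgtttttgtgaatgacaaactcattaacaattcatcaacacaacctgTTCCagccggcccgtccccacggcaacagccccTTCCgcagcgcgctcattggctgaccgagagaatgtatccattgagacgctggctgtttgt
Etv5, upstream start: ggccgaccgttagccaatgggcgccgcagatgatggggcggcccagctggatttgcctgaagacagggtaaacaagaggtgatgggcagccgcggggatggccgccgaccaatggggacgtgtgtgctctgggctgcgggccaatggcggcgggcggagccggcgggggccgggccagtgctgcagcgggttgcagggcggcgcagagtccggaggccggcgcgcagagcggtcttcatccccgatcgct
Etv5, downstream start: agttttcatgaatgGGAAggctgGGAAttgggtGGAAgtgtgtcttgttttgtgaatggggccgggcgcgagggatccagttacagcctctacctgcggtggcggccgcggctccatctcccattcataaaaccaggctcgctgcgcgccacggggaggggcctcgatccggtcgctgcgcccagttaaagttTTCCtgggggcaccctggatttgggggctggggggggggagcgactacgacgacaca
Dusp6 holds 6 such cores, the upstream Etv5 window 0 and the downstream window 4. This is no rarity: 30698 of 32851 promoters of that length (93.4%) hold GGAA on either strand. Of the 22 ERK response genes 15 have an entry, and all 15 hold GGAA if any promoter of the gene is counted. The share of 93.4% counts promoters and not genes, so the 2 are unlike measures. Searched first on both strands, the longer ETS form CCGGAAG (6.91% of promoters), GCGGGGGCG of Egr factors (2.57%), TGACGCA (1.75%) and TGACGTCA (1.55%) of cAMP response elements were found in 0 of the 15. GGAA was added after those 4 gave no match, and matches in a window describe letters and no binding.

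Stem cell associated genes as a list ran close to the ERK response, but both lists hold Etv5, Bcl6b, Lhx1, Pou3f1, Egr2, Dusp6 and Tcl1. Over 19 tested genes the median was -0.24 from Q1 (preparation medians -0.47 to 0.18), against -0.01 over all genes, and 3 of 19 lay above 0. Id4 alone stood lower at unadjusted p under 0.05, against 2.24% of all genes, and 0 stood higher. From Q4 the median was 0.68 (0.34 to 1.10), and 9 of 19 stood higher, against 8.91% of all genes: Gfra1, Etv5, Bcl6b, Tcl1, Dusp6, Cdh1, Cd9, Egr2 and Itgb1. The median from Q4 was 0.52 with detected genes as a covariate and 0.37 on the log of the mean. Tcl1, a coactivator of the kinase Akt, stood at 140 ± 15.5 FPKM in Q2, 204 in Q1 and 91.8 in Q4. Its difference from Q4 of 1.71 ± 0.49 came down to 1.01 without preparation 5, 1.13 with the covariate and 0.92 on the log of the mean. Nanos2, an RNA-binding protein of stem cells, averaged 1.03, 19.2, 0, 1.43 and 9.21 FPKM in Q2, differed by -0.15 ± 0.21 from Q1, and was detected in 14 of 70 cells.

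Of the 16 undifferentiated and progenitor genes tested, 2 stood lower in Q2 than in Q4 at unadjusted p under 0.05, Neurog3 and Upp1, against 0.966% of all genes. Another 2 stood higher, Sall4 among them, against 8.91% of all genes, and 10 of 16 differences from Q4 lay above 0. Against Q1, 1 stood higher, Sall1, against 1.84% of all genes, and 0 lower. Neurog3, a helix-loop-helix factor, averaged 0.209, 6.47, 0, 0 and 1.18 FPKM in Q2 cells, 1.97, 4.94, 0, 0.907 and 0 FPKM in Q1 and 13.2, 8.27, 0, 5.83 and 11.4 FPKM in Q4. It was detected in 5 of 70 Q2 cells (7.14%, exact interval 2.36 to 15.9%), against 8.11% of Q1 and 15% of Q4 cells. The differences were -0.06 ± 0.22 from Q1 and -0.53 ± 0.23 from Q4 (limma unadjusted p = 0.0281, lower in 4 of 5 preparations and at 0 in both groups in the other), or -1.88 from Q4 on the log of the mean. Upp1, a uridine phosphorylase, averaged 19.6, 46.7, 20.5, 32.7 and 30.6 FPKM in Q2 and 39.8, 68.3, 144, 97.4 and 70 FPKM in Q4. Each Q2 mean was below the Q4 mean of its preparation. In the mean of logs the difference of Upp1 from Q4 was -1.44 ± 0.57 (limma unadjusted p = 0.0191, lower in 4 of 5 preparations), or -0.86 without preparation 4 and -2.31 without preparation 5. Against Q1 Upp1 differed by 0.45 ± 0.54. Sox3 differed by -0.08 ± 0.24 from Q1 and -0.33 ± 0.25 from Q4. Over the 16 progenitor genes the median was -0.08 from Q1 and 0.25 from Q4, but -0.18 from Q4 with detected genes as a covariate and -0.10 on the log of the mean, so its direction there turns with the setting. Zbtb16, the PLZF repressor, stood at 50 ± 19.4 FPKM in Q2 and 51.4 in Q1 (-0.17, interval -0.77 to 0.43).

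Sall1, a zinc finger factor of the same list, stood higher in Q2 than in the other 3 quartiles. It averaged 21.6, 20.5, 17.9, 9.22 and 19 FPKM in Q2 and 11.1, 7.55, 3.09, 6.68 and 9.82 FPKM in Q1. In every preparation Q2 was the higher of the pair, and only preparation 4 overlapped the Q1 range. The differences were 0.72 ± 0.30 from Q1 (limma unadjusted p = 0.024, adjusted p = 0.999), 0.81 from Q3 and 0.67 from Q4.

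Genes of differentiation stood at similar means in Q2 and Q1, with wide intervals. Kit, the receptor of differentiating spermatogonia, averaged 15.8, 16.7, 22, 14.7 and 16 FPKM in Q2, 12.8, 26.4, 18.8, 18.7 and 21.6 FPKM in Q1 and 57, 26.2, 10.0, 13.9 and 21.6 FPKM in Q4. The Q2 minus Q1 difference of mean logs was 0.02 ± 0.37 (interval -0.75 to 0.78) and that from Q4 was -0.01 ± 0.39, or -1.06 with detected genes as a covariate. Against Q3, Kit stood lower in Q2 in 5 of 5 preparations (-0.63 ± 0.37, limma unadjusted p = 0.105). Stra8, which retinoic acid induces, averaged 86.2, 110, 135, 85.3 and 115 FPKM in Q2 and 73.4, 57.8, 323, 96 and 85.6 FPKM in Q1. Preparation 3 of Q1 lay far above all others. The differences of Stra8 were 0.27 ± 0.45 from Q1 in the weighted fit (interval -0.66 to 1.20), against unweighted means of log2 values of 4.88 in Q2 and 4.95 in Q1, and -0.21 ± 0.47 from Q4. Of the 15 genes of the list, 0 stood apart from Q1 at unadjusted p under 0.05, against 1.84% higher and 2.24% lower of all genes, with a median of 0.08. Above Q4 stood 2, Ccnd2 and Stk31, a share near the 8.91% of all genes, with a median of 0.03. Over 13 retinoic acid genes the median was 0.02 from Q1 and -0.10 from Q4.

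Cell cycle lists gave no steady direction. Over 39 genes of G1/S and replication the median was -0.15 from Q1 (preparation medians -0.61 to 0.14) and 0.32 from Q4, but -0.13 from Q4 with the covariate. Rrm2, a subunit of ribonucleotide reductase, at 84.5 FPKM in Q2 and 120 in Q1, stood at -0.90 ± 0.36, and Pola2, a subunit of the replicative polymerase, at -0.99 ± 0.35 from Q1. Over 33 genes of G2/M and mitosis the median was -0.03 from Q1 and 0.29 from Q4, or -0.16 with the covariate. The spindle checkpoint kinase Bub1 stood 0.56 ± 0.26 above Q1 (limma unadjusted p = 0.0415, 5 of 5 preparations) and Bub1b 0.39 ± 0.28, while Hmmr, a spindle-associated protein, stood lower (-0.76 ± 0.36). Bub1b stood 1.06 ± 0.29 above Q4 (limma unadjusted p = 0.0014), 0.54 with the covariate.

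Cytosolic ribosomal protein genes gave the narrowest intervals. Over 81 genes the median was -0.01 from Q1 and 36 of 81 intervals lay within 0.5, against 9.70% of all genes. From Q4 the median was -0.14, with preparation medians of -0.24 to -0.05, and 7 stood lower against 0.966% of all genes, Rpl26 among them, and 1, Rpl39, higher. Scaled to a common 75th percentile the median was 0.02, so the direction flips with the scaling. Rpl26 averaged 80.8, 82.8, 53.5, 81.9 and 135 FPKM in Q2 and 165, 133, 154, 170 and 156 FPKM in Q4. All Q2 means lay below all but 1 of the Q4 means. Rpl26 stood at -1.87 ± 0.44 from Q4 (limma unadjusted p = 0.000312) and -0.73 on the log of the mean. Ribosomal protein genes have many processed copies in the genome, and how reads were split among them is not given in the sources used here.

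**Figure D3:**
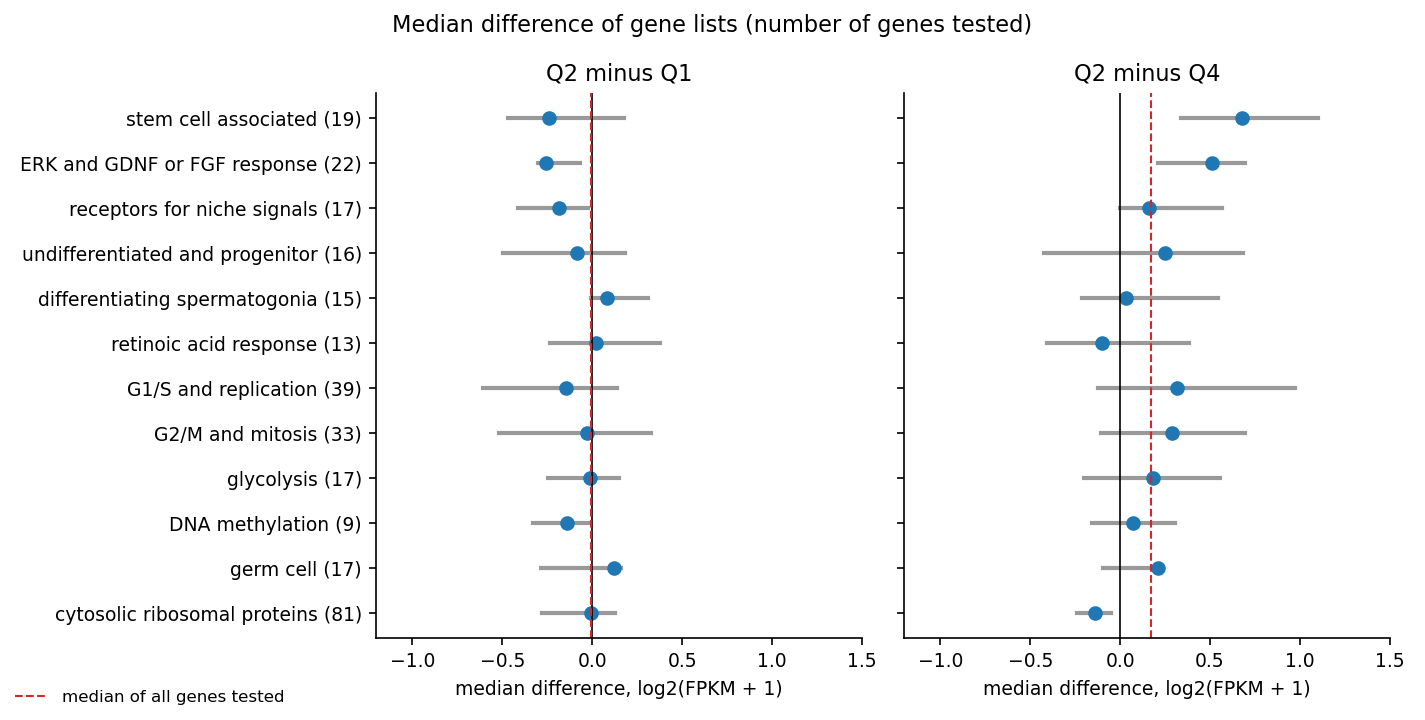
Median difference in log2(FPKM + 1) for 12 gene lists (points) with the range of the 5 preparation medians (grey bars), for Q2 minus Q1 and Q2 minus Q4, and the median over all genes tested (dashed). On the right the stem cell and ERK lists lie at 0.68 and 0.51, to the right of the all-gene median of 0.17, and ribosomal protein genes at -0.14.

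Of genes chosen only for the smallest p with the same direction in 5 of 5 preparations, the 8 above Q1 were Snora78, Sh3d19, Sec24d, Bin3, Hey1, Sh3bp1, Wdr83 and Ei24, at 0.75 to 1.37. Hey1, a Notch target, averaged 10.0 ± 11.4 FPKM in Q2 and 1.28 in Q1 (0.75 ± 0.21, limma unadjusted p = 0.00165, adjusted p = 0.999). Snora78, a small nucleolar RNA, averaged 51.4, 93, 76.6, 74.5 and 56.4 FPKM in Q2 and 0, 20.5, 9.42, 51.6 and 86.1 FPKM in Q1, ranges that overlap through preparations 4 and 5 of Q1. In preparation 5 its FPKM mean was lower in Q2, so its direction in 5 of 5 holds for the mean of logs only. Snora78 lies within the bounds of Snhg9 on the same strand, with no annotated exon overlap. The 8 below Q1 were Hlf, Amot, Rgs2, Abracl, Tubb6, Gcdh, Rap1a and Ndel1, at -1.31 to -0.93. Amot, angiomotin, which binds the Yap coactivator, averaged 4.92, 1.06, 2.94, 4.08 and 5.83 FPKM in Q2 and 17.8, 11.9, 26.3, 19.5 and 6.13 FPKM in Q1, with no overlap, and stood at -1.29 ± 0.32 (limma unadjusted p = 0.000414, adjusted p = 0.999). Against Q4, Amot differed by -0.13 ± 0.33 (interval -0.82 to 0.56). Rgs2, a regulator of G protein signalling, differed by -0.97 ± 0.24 from Q1 and -0.65 ± 0.25 from Q4. Wdr83 shares exons with the antisense genes Dhps and Wdr83os.

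Against Q3 the same rule gave Dedd, Zfp948, Ado, Mixl1, Rcl1, Casc4, Zfp53 and Angptl4 as higher in Q2, at 0.71 to 1.59, and Ppp1r21, Hipk3, Pusl1, Otud3, Pex26, Lrrcc1, Zp3 and Rit1 as lower, at -1.29 to -0.70. Against Q4 it gave Zfp948, Nudcd1, Morf4l2, Slc38a2, Trim33, Pigf, Dusp6 and Tiparp as higher, at 0.91 to 1.94, and genes that include Rpl26, Zfp760, Sod1, Cox4i1, Eppin and Uchl1 as lower, these at -1.87 to -0.24. Zfp948, a zinc finger protein, averaged 127, 173, 185, 60.3 and 71.9 FPKM in Q2, 93.6, 122, 18.4, 46.6 and 66.2 FPKM in Q1 and 81.4, 61.1, 0.239, 11.2 and 51.6 FPKM in Q4. Its Q2 mean exceeded both others in every preparation. Zfp948 stood 0.45 ± 0.37 from Q1, 1.59 ± 0.37 from Q3 and 1.92 ± 0.39 from Q4 (limma unadjusted p = 5.45e-05, adjusted p = 0.295). Nudcd1 and Pigf overlap antisense genes. The 12 genes called between Q1 and Q4 earlier, which were chosen on these cells and are no separate evidence, had a median of -0.60 from Q1 and 1.22 from Q4, and 11 of 12, all but Hlf, stood higher than Q4 at unadjusted p under 0.05, against 8.91% of all genes tested.

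Q2 cells differed among themselves in which of these genes they held. Gfra1 and Kit were detected together in 37 of 70 cells (52.9%, exact interval 40.5 to 64.9%), Gfra1 without Kit in 18 (25.7%, 16 to 37.6%), Kit without Gfra1 in 7 (10.0%, 4.12 to 19.5%) and neither in 8 (11.4%, 5.07 to 21.3%). Over preparations the share with both ran from 14.3 to 85.7%. It differed from Q1 by -2.99 ± 29.1 percentage points (SD over 5 preparations, exact permutation p = 0.8125) and from Q4 by 12.4 ± 23.6 (p = 0.375, same exact test). In 10 of 70 cells none of Id4, Gfra1 and Nanos2 was detected. Of the 5 cells with Neurog3, 3 also held Gfra1 and 2 held Nanos2. A gene listed at 0 in a cell can be a missed molecule.

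**Figure D4:**
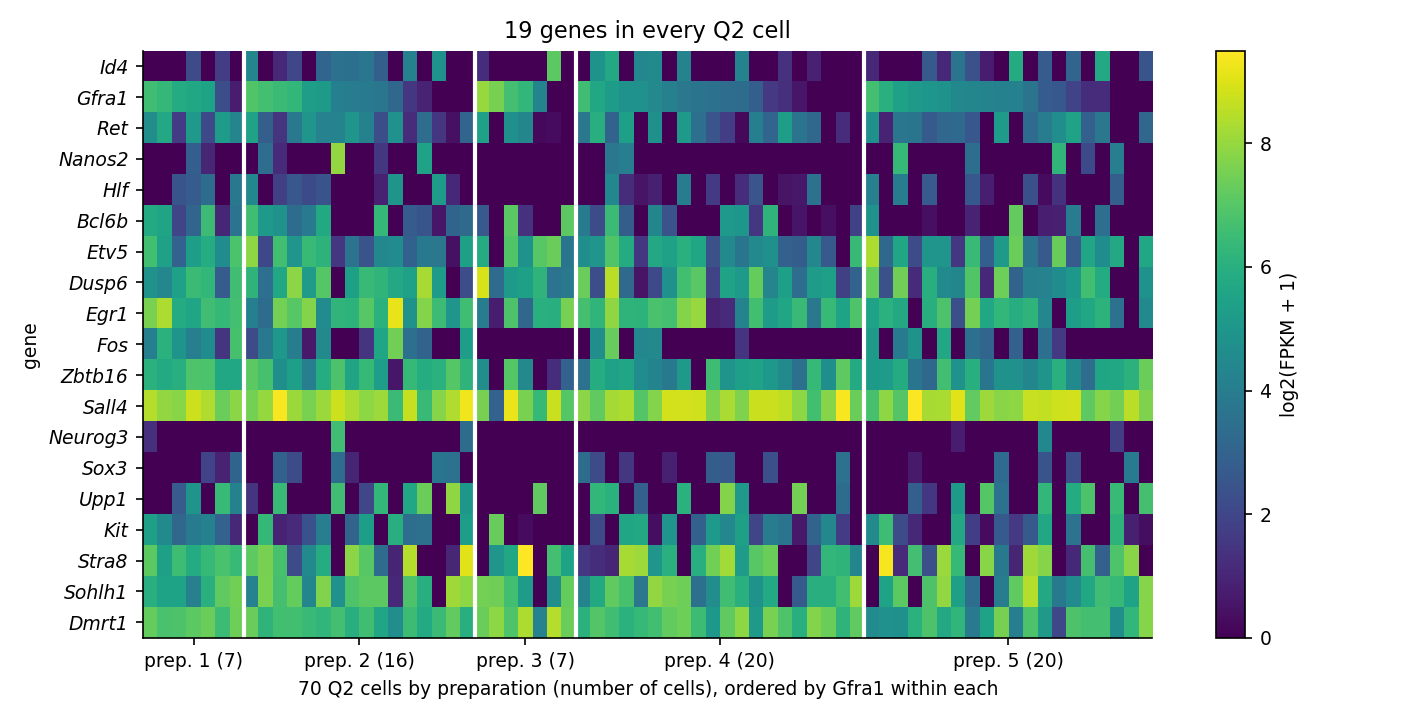
Log2(FPKM + 1) of 19 genes (rows) in each of the 70 Q2 cells (columns), grouped by preparation with the number of cells in brackets and ordered by Gfra1 within each. Sall4 and Zbtb16 are bright in nearly all columns, Neurog3 and Nanos2 in few, and Fos is dark in all 7 cells of preparation 3.

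Over the 70 Q2 cells, after centring on each preparation, the ERK response score ran against Stra8 and with the stem cell score. The score of a list is its mean log2(FPKM + 1). Pearson's r was -0.39 between the ERK score and Stra8, with -0.70 to -0.04 in single preparations, and -0.30 between the ERK and the differentiation score (-0.46 once detected genes were removed, and below 0 in all 5 preparations). Etv5 and Dusp6 ran together (0.50, 0.31 to 0.55), as did Kit and Stra8 (0.37, -0.07 to 0.65). For Gfra1, r was 0.03 with Id4 (-0.54 to 0.47 in single preparations) and 0.16 with Kit (-0.01 to 0.88). The ERK and stem cell scores had r = 0.75 but share genes. These are descriptions of 70 cells that share chips within a preparation. Their estimated depth varied there too, from 285644 to 948299 fragments in preparation 5. Detected genes ran with the G1/S score (0.57).

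The main axis of variation among Q2 cells followed the number of detected genes. The first principal component held 4.05% of the variance over 8075 genes and had r = 0.94 with detected genes. The second held 2.55%, had r = 0.49 with the ERK score, 0.48 with the stem cell score and -0.29 with the differentiation score, and Stra8 was at its far end. Similarity between cells was close in Q2 and Q1. The median Spearman rho between 2 Q2 cells of a preparation was 0.608, 0.584, 0.446, 0.553 and 0.553, lowest in preparation 3. It differed by -0.0023 ± 0.0174 from Q1 (SD over 5 preparations, exact permutation p = 0.625), by 0.0022 ± 0.0107 from Q3 (exact permutation p = 0.625) and by 0.0332 ± 0.0202 from Q4 (5 of 5 higher, exact permutation p = 0.0625, the smallest possible). Detected genes were also higher in Q2 than in Q4 in 4 of 5 preparations, and their part in this was not tested.

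**Figure D5:**
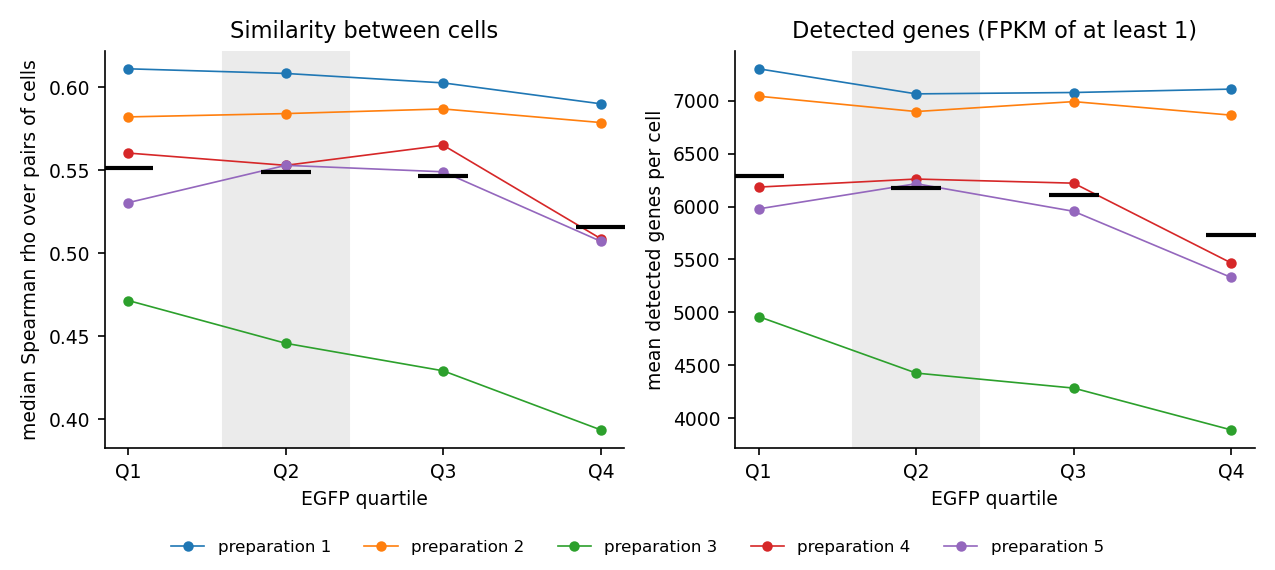
Median Spearman rho over pairs of cells (left) and mean detected genes per cell (right) by quartile, in each preparation (coloured) and as the mean of 5 (black bars). Preparation 3 lies apart on both panels, and Q4 is the lowest quartile for similarity in all 5 preparations.

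The spread of single genes over cells was compared as the SD of log2(FPKM + 1) within preparations. Limma called 0 genes between Q2 and Q1, with 178 (1.70%) more and 173 (1.66%) less variable in Q2 at unadjusted p under 0.05. It called 0 between Q2 and Q4, with 273 (2.61%) more and 537 (5.14%) less variable, or 256 and 297 without preparation 5. By the median absolute deviation the split against Q4 ran the other way, 511 more and 289 less variable, and 2 genes passed: Kpna4, a nuclear import receptor (2.48 ± 0.38, limma adjusted p = 0.0392), and Nthl1, a DNA repair glycosylase (3.5 ± 0.49, adjusted p = 0.0279), both named after their values were seen. Their mean shares of cells in Q4 were 33.5% for Kpna4 and 39.6% for Nthl1, with median absolute deviations of 0.259 and 0, against 2.21 and 3.20 in Q2. This measure is 0 wherever most cells of a group are at 0. The 2 calls and the split against Q4 can therefore follow the share of cells with a gene, which was not tested. Etv5 had an SD of 1.97 in Q2 and 2.47 in Q4 (-0.68 ± 0.28, limma unadjusted p = 0.0245), and Neurog3 of 0.667 and 1.80 (-1.12 ± 0.47), beside the differences in mean given above.

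The genes whose SD over Q2 cells most exceeded that of others at the same mean were Mir703, Mir686, Hist1h4d, Snhg9, Rpl26, Ppil3, Gt(ROSA)26Sor, Snora78, Tktl1 and AI413582. Several are short or overlap others: Mir686 lies in exons of Psmb5 on the same strand and Snhg9 across from Rps2, and a single fragment on a short gene gives a large FPKM. Snora78 lies within the bounds of Snhg9, so these entries may not be separate. Mir703 reached 14180 FPKM and was detected in 19 of 70 Q2 cells. Rpl26 was detected in 55.7% of Q2 cells with an SD of 3.63, and Hist1h4d, a replication-dependent histone, in a mean of 83.3% over preparations with an SD of 2.54. Tktl1, a transketolase-like enzyme, had an SD of 2.66 at a mean share of 91.1%.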

How the data were processed

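The authors deposited 1 matrix of FPKM values, 23354 genes by 278 cells; the header gives no unit, which was read from the quantifier's name and the values. The tools, per the submitters' processing notes, were TopHat, Cufflinks, Picard and FastQC, on mm10 (GRCm38). Not given in the sources used here are their versions and settings, the annotation and the strand setting. In the matrix, 6247 genes are 0 in every cell, and 21695 symbols matched GENCODE M21.

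Depth was estimated from the smallest FPKM steps of 2110 genes with 1 transcript of at least 1500 bases. Intervals of shares cover counting error only. For each preparation and quartile, log2(FPKM + 1) was averaged over cells. The 20 means, weighted by cells, entered a limma fit (version 3.58.1, R 4.3.3) (trend; quartile, preparation as block; 12 residual degrees of freedom) keeping genes that 10% or more of all cells held at FPKM 1 or higher. Fold changes are on the log2(FPKM + 1) scale, which understates low genes. Tests were two-sided, with Benjamini-Hochberg adjustment over all genes. Other tests were exact sign-flip permutations over 5 preparations. Scripts were tested on simulated data.

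The numbers in the sample titles were read as preparations, and the quartiles of each were taken to come from 1 suspension. Deviations from the quartile means correlated at a median of 0.19 within a preparation (lowest 0.0758). Between other preparations and quartiles the median was -0.0672, which taking deviations from a mean over preparations by itself pushes below 0. Whether suspension, chip or sequencing run is what the cells of a preparation share was not tested.

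Named genes were a panel of markers, genes of smallest p with 1 direction in 5 of 5 preparations and at least 5 FPKM (8 per direction), earlier calls, the 10 of largest excess SD, and list members at unadjusted p under 0.05. The cells, lists and rules were chosen with earlier results of these data known. Alternatives were a pseudocount of 0.1, a filter at 25% of cells or none, a common 75th percentile, no block, detected genes as a covariate, the log of the mean, only the quartiles compared, and each preparation left out. A few genes that the rule selects are not reported here.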

Additional observations from a re-analysis of the deposited data

Results flagged for a closer look

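In 4 of 30 values examined, the mean of Q2 cells in 1 preparation lay farther from the other 4 than 0.71 of their range; chance gives about 1 in 20. Ret averaged 24.5 FPKM in preparation 1 against 11.6 to 14.2 in the others. Neurog3 averaged 6.47 FPKM in preparation 2 against 0 to 1.18. Kit averaged 22 FPKM in preparation 3 against 14.7 to 16.7, and Rab4a 31.1 FPKM in preparation 3 against 7.98 to 12.9. Preparation 3 has 7 Q2 cells and the fewest detected genes.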

How the results depend on the processing

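The count of genes with Q2 held near Q1 was the least stable value: 1014 in the main analysis, 292 with a pseudocount of 0.1, 454 with a filter at 25% of cells, 7444 with no filter, 632 with no replicate block, and 435 to 961 with 1 preparation left out. The median absolute deviation gave 2 calls against Q4 in place of 0. In the other comparisons of means limma called 0 genes under every alternative run, which says nothing of stability, so counts at unadjusted p under 0.05 are given instead. Without preparation as a block they came to 88 higher and 94 lower against Q1, 141 and 66 against Q3, 433 and 39 against Q4, 228 and 29 against the midpoint, and 75 and 80 for the spread against Q1. The block raised each of these counts and made no call. Of 2672 values for single genes and lists under an alternative, 282 moved by more than 1 SE or SD. Limits: 5 preparations, 4 to 20 cells in each mean, an estimated depth, FPKM without counts, and a number of detected genes that differs between Q2 and Q4.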

Other observations

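Over 17 glycolysis genes the median difference of Q2 from Q1 was -0.01, 3 of 17 intervals lay within 0.5 against 9.70% of all genes, and Aldoc, an aldolase, stood 0.89 lower in Q2 (limma unadjusted p under 0.05, no adjusted call). Over 9 DNA methylation genes the median was -0.14 from Q1, with preparation medians of -0.33 to -0.03 and 3 of 9 differences above 0, and 0.07 from Q4. Tet3, a methylcytosine dioxygenase, averaged 2.49 FPKM in Q2 and 6.68 in Q4 (-0.68 ± 0.26, limma unadjusted p = 0.0141, lower in 5 of 5 preparations, adjusted p = 0.395). Over 17 germ cell genes the median was 0.12 from Q1 and 0.21 from Q4. Ddx4, an RNA helicase of germ cells, averaged 468 FPKM in Q2, 426 in Q1 and 381 in Q4 (0.30 ± 0.14 from Q4), and Uchl1 stood lower than in Q4 in 5 of 5 preparations (-0.52 ± 0.16).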
